A study of Mus musculus with 768 samples.

Results

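The translation factors are the proteins that bring ribosomes onto mRNA and move them along it. They were taken as every deposited gene symbol that begins with Eif1 to Eif6 or with Eef, leaving out Eif2s3x, Eif2s3y and the eIF2 alpha kinases (Eif2ak genes). This rule, which uses names and no measured value, gave 58 of 24490 gene entries. They were read in single natural killer (NK) cells that had infiltrated MTAP1A tumors, a TAP1-deficient fibrosarcoma clone. The tumors grew in male C57BL/6 mice, either wild-type (WT) or PDCD-1(PD-1)-/- (PD-1-/-), of 8 to 12 weeks, with no treatment named in the labels, and the deletion is a general one, so that PD-1 is missing from other immune cells too. Viable NK cells were sorted into 1 plate per genotype from pooled tumors of 3 mice each, and libraries were made by SMART-SEQ2, which reads full-length transcripts without molecular identifiers. Genotype and plate cannot be told apart, which mouse a cell came from is not known, and cells of 1 pool are not replicates. All values below therefore describe 1 pool per genotype, without a test between them.

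Protein synthesis begins when eIF2 with the initiator tRNA, eIF1, eIF1A, eIF5 and the large eIF3 complex assemble on the small ribosomal subunit, which is then recruited to the mRNA cap by the eIF4F complex. After start codon recognition and joining of the large subunit, eEF1A delivers aminoacyl-tRNAs and eEF2 drives translocation. NK cells that are activated through cytokine receptors and mTORC1 are known to grow and to raise their metabolism and protein synthesis, and many mRNAs of the translation machinery are themselves under mTORC1 control through a pyrimidine tract at their 5′ end.

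In wells with 1000 to 3500 genes above 0, counting the 14761 genes found in at least 3 wells, 726 cells were kept, 360 of them WT and the others PD-1-/-. A kept cell had a median of 2264.5 genes above 0 on the WT plate and 2262.5 on the PD-1-/- plate. Whole reads recovered from the steps of the deposited RPKM (reads divided by gene length and by library size) had medians of 294285 and 311734 per cell. All kept cells had at least 1 of 8 NK-like markers above 0, while the share with at least 1 of 10 T-like markers was 22.2% on the WT and 26.8% on the PD-1-/- plate, and that with a myeloid-like marker 13.1% and 7.10%. Pdcd1, the deleted gene, was above 0 in 9 WT (2.5%) and 47 PD-1-/- cells (12.8%). The strain lacks exons 3 and 4 of Pdcd1, so that transcript of the remaining gene can be made. Values per gene do not separate exons, so Pdcd1 gives no check of the labels, and each genotype name below means the plate that carries it as a label.

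Because mRNAs of this machinery are known for pyrimidine tracts at the 5′ end, the RefSeq start sites were examined first. RefSeq (GRCm38.p6) windows around the start were at hand for 44 of the 58 factors. The following 30-base windows belong to the 5 most abundant factors with a single RefSeq window, and to the ribosomal protein gene Rps18 for comparison. They run 5′ to 3′ on the gene's strand, 15 bases of promoter followed by 15 bases of the first exon, and the capitals mark the first 5 transcribed bases.
Eef1a1: gctggctccgccctcTTCCCgagggtgggg
Eef2: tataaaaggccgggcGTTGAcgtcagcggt
Eef1b2: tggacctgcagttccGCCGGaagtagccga
Eif3f: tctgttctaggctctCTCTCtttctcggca
Eif3k: aaaacaaccggcgctGGTGCtgaaagcgcc
Rps18: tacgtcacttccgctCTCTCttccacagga
The windows lie at chr9:78481710-78481739 on the minus strand (Eef1a1), chr10:81176616-81176645 on the plus strand (Eef2), chr1:63176816-63176845 on the plus strand (Eef1b2), chr7:108934400-108934429 on the plus strand (Eif3f), chr7:28981874-28981903 on the minus strand (Eif3k) and chr17:33955651-33955680 on the minus strand (Rps18). An oligopyrimidine start was defined as a C at the first base followed by 4 bases that are each C or T, on the gene's strand only. Of the 44 factors, only Eif3f had such a start in RefSeq (2.27%), against 3.01% of 27025 genes and 24.1% of 58 cytosolic ribosomal protein genes. Eef1a1 missed the definition by its first base, as all of its first 5 bases were pyrimidines. Anywhere within the 30 bases, the same 5-base pattern stood in 29.5% of the factors, 40.3% of all genes and 65.5% of the ribosomal protein genes. An annotated start need not be the base at which these cells began the transcript.

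Expression of the factors differed widely between genes, from 2195 RPKM for Eef1a1 to 0.187 RPKM for its paralog Eef1a2 as the mean over all kept cells, and the most abundant ones came mainly from elongation and from eIF3. Of the 58 factors, 55 were above 0 in a kept cell and 43 in at least 20% of kept cells. The mean level over all kept cells reached 100 RPKM for 20 factors and 500 RPKM for 5. These 5, Eef1a1, Eef2, Eif3f, Eif5a and Eef1b2, made up 53.7% of the summed mean RPKM of the factors on the WT plate and 52.6% on the PD-1-/- plate, and Eef1a1 alone 23.4% and 22.4%. Since RPKM is given per length of gene, these levels can be compared between genes.

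**Figure D1:**
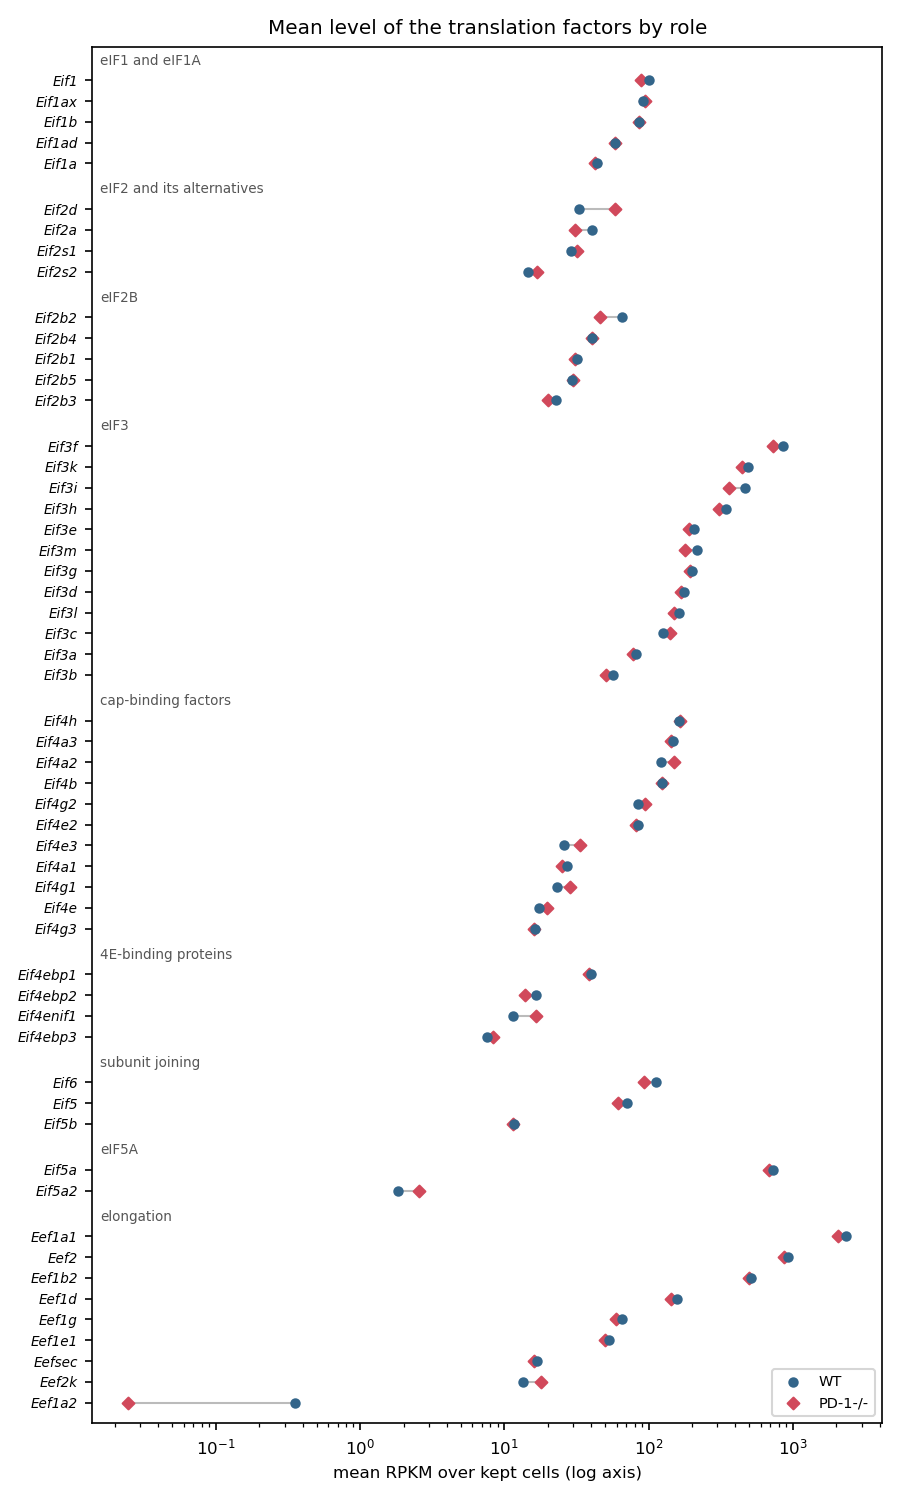
Mean RPKM over kept cells (log axis) of the 55 translation factors that were above 0 in a kept cell, grouped by role and ordered by level, with circles for the WT and diamonds for the PD-1-/- plate. The levels of the 2 plates lie close together for nearly every factor, while factors of one complex, such as eIF3 from Eif3f at 854 to Eif3b at 57.1 RPKM on the WT plate, differ widely.

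Elongation was led by Eef1a1, which delivers aminoacyl-tRNA to the ribosome. Eef1a1 was above 0 in 99.4% of WT cells, with a median of 2275 RPKM, quartiles of 1672 and 2982 and a highest value of 6328, and in 99.7% of PD-1-/- cells, with a median of 1952 RPKM, quartiles of 1436 and 2695 and a highest value of 4711. The 2 distributions overlapped over most of their range. Its paralog Eef1a2, known from muscle and neurons, was above 0 in 5 WT and 3 PD-1-/- cells. Eef2, the translocase, was found in 99.4% of all kept cells with medians of 883 and 792 RPKM. Among the subunits of eEF1B, which recycles eEF1A, Eef1b2 had a mean of 514 RPKM on the WT plate and 493 on the PD-1-/- plate, Eef1d 157.5 and 142.6, and Eef1g 65.04 and 59.8. Eef1g thus had a low listed mean although it was above 0 in 88.3% of all kept cells. It is among the factors with close copies elsewhere, described below, so this level is uncertain. Eef2k, the kinase that inhibits eEF2, was found in 20.7% of all kept cells, Eefsec, the selenocysteine elongation factor, in 20.1%, and Eef1e1, a component of the multi-tRNA synthetase complex, in 19.8%.

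eIF3 holds the small subunit and the other initiation factors together, and its subunits work in 1 complex. Their mRNAs were not at 1 level: the mean over all kept cells ran from 792 RPKM for Eif3f to 53.7 RPKM for Eif3b, a ratio of 14.7. Eif3k (468 RPKM), Eif3i (413 RPKM) and Eif3h (325.3 RPKM) followed Eif3f, and Eif3m, Eif3e, Eif3g, Eif3d, Eif3l and Eif3c lay between 133.5 and 198.8 RPKM. Eif3f was above 0 in 93.5% of all kept cells, while Eif3a, the scaffold subunit, was above 0 in 62.8% with a mean of 79.9 RPKM. Eif3j1 and Eif3j2, copies of the gene of the loosely bound subunit eIF3j, were listed at 0 in every well.

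The initiation factors that scan for the start codon had lower means than most eIF3 subunits. Eif1, which guards start codon choice, was above 0 in 94.4% of WT cells and 93.7% of PD-1-/- cells at medians of 74.4 and 68.9 RPKM. Its paralog Eif1b had a similar mean, 85.8 RPKM on the WT and 86.1 on the PD-1-/- plate, but was above 0 in only 34.7% and 36.1% of cells. Eif1ax and Eif1a, which encode eIF1A, had means of 92.5 and 43.4 RPKM over all kept cells. The eIF2 subunits were low, with 30.3 RPKM for Eif2s1, the alpha subunit that stress kinases phosphorylate, and 15.8 RPKM for Eif2s2, the beta subunit. The 5 subunits of eIF2B, the exchange factor of eIF2, ranged from 21.5 RPKM (Eif2b3) to 55.7 RPKM (Eif2b2) and none was above 0 in more than 25.8% of WT cells.

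The cap-binding machinery was spread over paralogs. Of the eIF4A helicases of initiation, Eif4a2 had the higher mean (121.96 RPKM on the WT plate and 150.5 on the PD-1-/- plate) and Eif4a1 the lower one (27.2 and 25.1), although Eif4a1 was above 0 in more of all kept cells, 78.5% against 69.97%. Both share sequence with other genes, Eif4a1 most of its own, as described below, so the order of these means is uncertain. Eif4a3, the family member of the exon junction complex, had a mean of 145.2 RPKM over all kept cells, where Eif4a2 had 136.4. Eif4h and Eif4b, which stimulate the helicase, had means of 163.7 and 124.1 RPKM over all kept cells. Of the cap-binding proteins, Eif4e had a mean of 18.6 RPKM and was above 0 in 29.3% of all kept cells, below its homologue Eif4e2 at 83.5 RPKM. Eif4e1b was listed at 0 in every well. The scaffolds Eif4g1 and Eif4g3 had means of 25.8 and 16.2 RPKM, and Eif4g2, which lacks the eIF4E binding site, 89.7 RPKM. The 4E-binding proteins, which keep eIF4E from eIF4G until mTORC1 phosphorylates them, were found in a minority of cells: Eif4ebp1 in 63 WT and 63 PD-1-/- cells, Eif4ebp2 in 46 and 39, and Eif4ebp3 in 30 and 30.

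Of the factors for subunit joining, Eif6, which keeps the large subunit apart, had a mean of 102.9 RPKM, Eif5, the GTPase activator of eIF2, 65.9 RPKM, and the GTPase Eif5b 11.5 RPKM over all kept cells. Eif5a, the hypusine-containing factor that relieves ribosomes stalled on proline stretches, was among the most abundant, at medians of 637 RPKM on the WT and 602 RPKM on the PD-1-/- plate, whereas Eif5a2 was above 0 in 13 WT and 15 PD-1-/- cells.

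Several of these genes have close copies elsewhere in the genome, and how the authors' counting treated reads that match more than 1 gene is not given in the sources used here. In GENCODE vM21 transcripts, the 50-base stretches of a factor's longest coding transcript that also occur in transcripts of another gene made up a median of 4.01% over the 58 factors, and at least 50% for 6 of them. These 6 were Eif3j2 (91.8%), Eif4ebp3 (65.5%), Eif4a1 (65.3%), Eef1g (64.3%), Eef1a1 (60.6%) and Eif3j1 (54.8%). Eif3j1 and Eif3j2, both listed at 0, share most of this sequence with each other, and Eif4a1 and Eef1g share theirs with 8 and 5 pseudogenes. Eef1a1, the factor of the highest level, shares stretches with 18 pseudogenes. The next highest shares were those of Eif3m (39.95%), Eif1 (31.6%), Eif2s2 (27.8%), Eif3h (26.2%) and Eif4a2 (26.2%). The levels of all the genes named here are uncertain for this reason, and the part of shared sequence in them was not tested. Shared stretches were absent between the paralogs compared above: the coding sequences of Eef1a1 and Eef1a2 were 80.1% identical, those of Eif1 and Eif1b 81.3%, Eif4a1 and Eif4a2 77.97%, Eif5a and Eif5a2 72.7%, Eif4ebp1 and Eif4ebp2 65.5%, Eif4g1 and Eif4g3 62.3%, and Eif4e and Eif4e2 55.5%, with 0 shared 50-base stretches in each pair.

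The first comparison asked whether the NK cells of the PD-1-/- plate differed from those of the WT plate in these factors. A per-cell score was formed as the mean of ln(RPKM + 1) over all 58 factors. The score had a lowest value of 0.567, a median of 2.33 and a highest value of 3.67 in WT cells (SD over cells 0.517, n = 360), and 0.676, 2.27 and 3.63 in PD-1-/- cells (SD over cells 0.513, n being the rest of the 726 cells). The difference of medians, PD-1-/- minus WT, was -0.0599, small against the SD over cells on either plate. A cell had a median of 27 factors above 0 on both plates, and the factors took a median of 1.76% of the RPKM sum in WT and 1.68% in PD-1-/- cells.

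The row medians of the score spread over a wider range than the difference between the plates. A row held 17 to 24 kept cells, so each median rests on few cells, and a shift with plate position was not tested. Row medians ran from 2.14 to 2.61 on the WT plate and from 2.02 to 2.52 on the PD-1-/- plate, and 12 of 16 plate rows had the lower median on the PD-1-/- plate. Over the upper 8 plate rows (A to H) the difference of medians was 0.0146, over the lower 8 (I to P) it was -0.118, and the SD of the difference over rows was 0.144. Without Eif3i the difference was -0.0211. It was -0.0119 with each cell scaled to a sum of 10000 and -0.0167 with a pseudocount of 10, both on a compressed scale. In cells thinned to 100000 reads it was -0.0671, over factors in at least 20% of cells -0.0680, and in rows C to P -0.0759. It was -0.0644 with a pseudocount of 0.1, -0.0401 with all wells and -0.0515 with 1500 to 3000 genes above 0. Without cells holding a CD3 chain read it was -0.0501, without cells under 100000 reads -0.0486, and without Eef1a1 -0.0572.

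**Figure D2:**
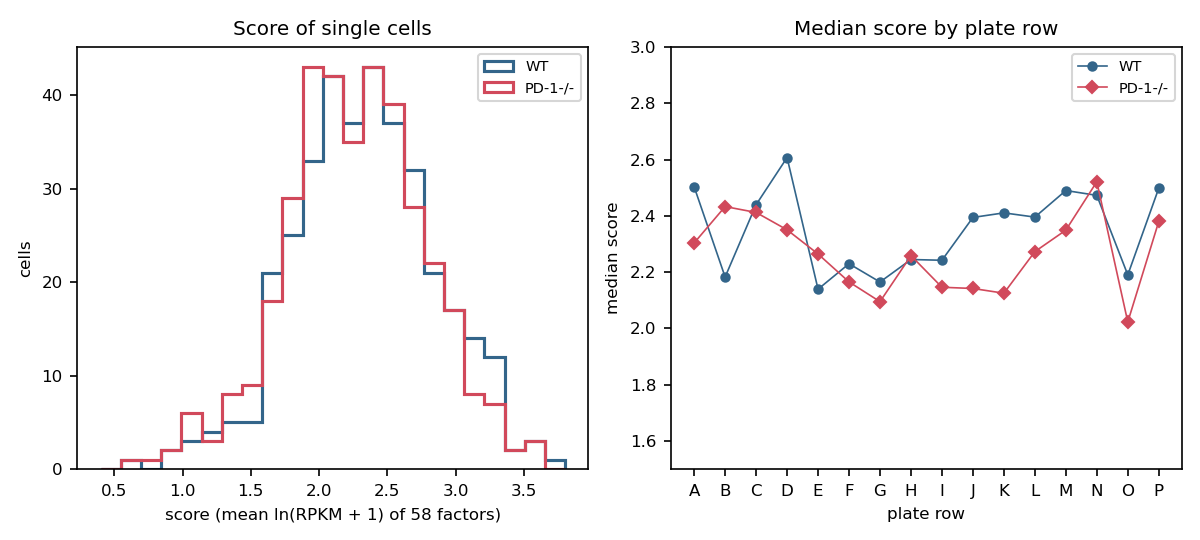
Left, number of cells by score (mean ln(RPKM + 1) of the 58 factors) on the WT and the PD-1-/- plate. Right, median score of the kept cells in each of the 16 plate rows (vertical axis from 1.5 to 3). The 2 distributions overlap nearly in full, with medians of 2.33 and 2.27, and the row medians of both plates cross.

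Gene by gene, most factors were a little lower on the PD-1-/- plate. The log2 ratio of the means on the PD-1-/- and the WT plate, with 1 RPKM added to each, was below 0 for 37 of 55 factors (67.3%), where 54.2% of all 18475 genes above 0 lay below 0. The median over the 55 factors was -0.06, and over the 52 that reached a mean of 10 RPKM on either plate -0.06 as well, against -0.00336 for 6566 genes past the same limit. The median over the 55 was -0.02 in the upper and -0.10 in the lower rows, -0.03 in cells thinned to 100000 reads, -0.03 without cells under 100000 reads, and -0.01 with each cell scaled to a sum of 10000. The scaled values lie nearer the 1 added to each mean, so this last ratio is on a compressed scale. Of the 52 factors past 10 RPKM, 36 were lower (69.2%), where 50.5% of the 6566 genes were. For 42 of the 55 factors the fold was within 1.2 in either direction. The share of all genes within this fold was not computed, so nothing on the factors is read from this count. The median absolute log2 ratio was 0.13 over the 52 factors past the limit of 10 RPKM, against 0.20 over the 6566 genes. For comparison, the 63 cytosolic ribosomal protein genes past that limit had a median of -0.24 and the 34 proteasome subunits 0.03. The 72 nuclear genes of oxidative phosphorylation had a median of -0.10, below that of the factors, and the 12 glycolysis genes -0.00857. The direction was the same in the upper and the lower rows for 30 of the 55 factors, 22 lower and 8 higher on the PD-1-/- plate. The share of all genes that keep their direction in this way was not computed, so nothing on the factors is read from these counts.

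**Figure D3:**
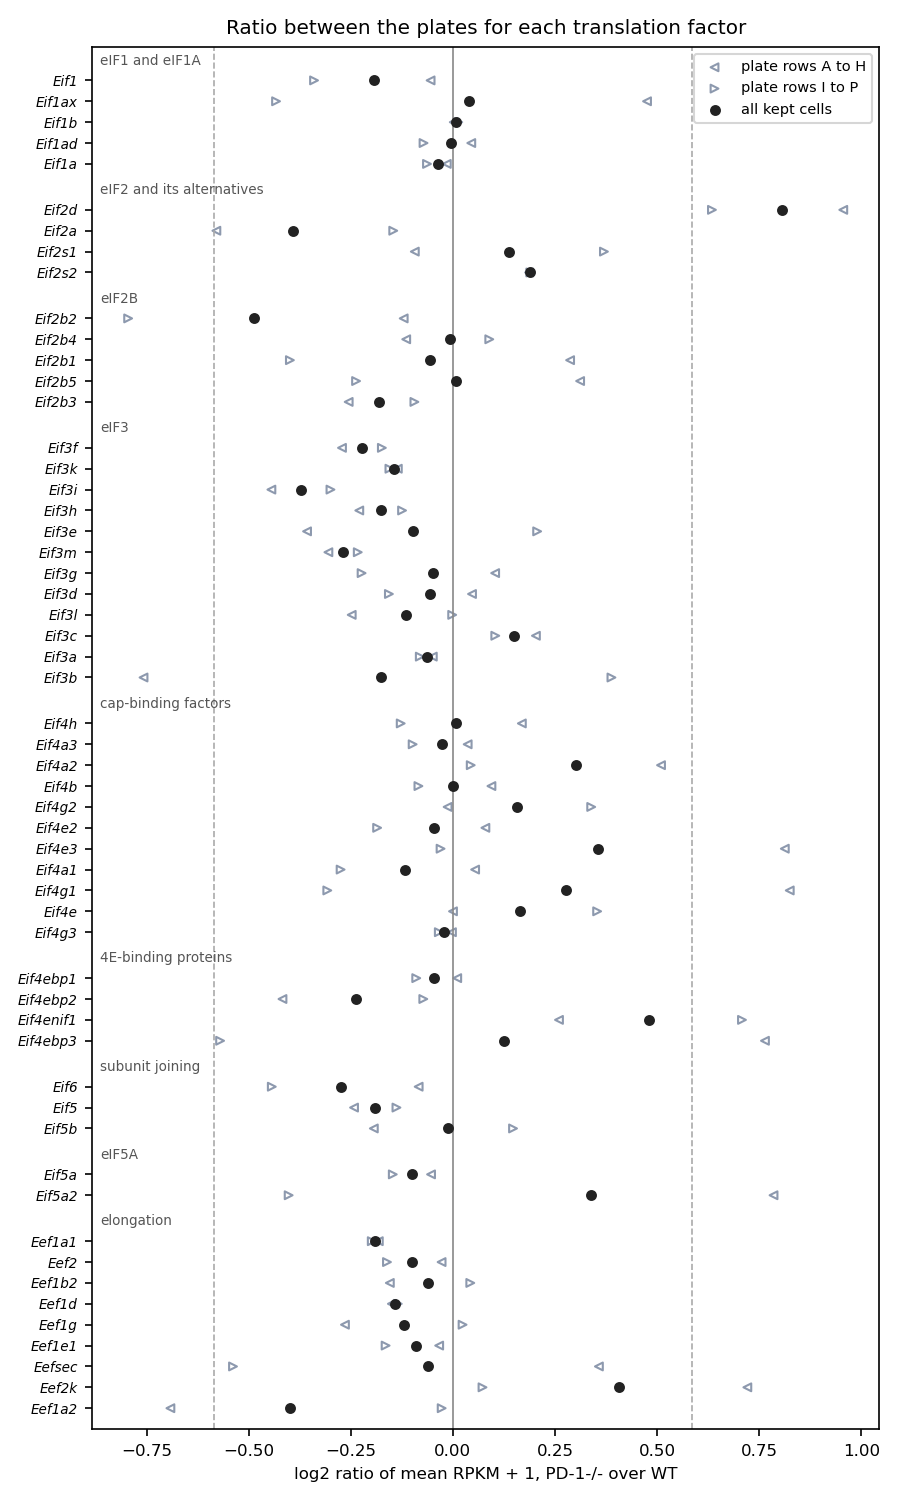
Log2 ratio of mean RPKM + 1, PD-1-/- over WT, of the 55 factors above 0, by role, for all kept cells (filled) and for the upper (A to H) and lower (I to P) plate rows apart (open triangles); dashed lines mark 1.5-fold. Only Eif2d lies past 1.5-fold with all kept cells, and the row blocks disagree in direction for 25 factors.

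Past 1.5-fold and with at least 10 RPKM on average on either plate, 1 of 52 factors was higher on the PD-1-/- plate (1.92%) and 0 were lower, while 5.35% of all genes were higher and 5.28% lower by this rule. The 1 factor was Eif2d, which can place initiator tRNA on the ribosome without eIF2 and takes part in ribosome recycling. Eif2d was above 0 in 57 WT cells (15.8%, exact 95% interval 12.2 to 20.02%, counting error only), at a mean of 32.8 RPKM, and in 88 PD-1-/- cells (24.04%, 19.8 to 28.8%), at a mean of 58.1 RPKM, so the intervals overlapped. Its log2 ratio was 0.81 in all kept cells, 0.96 in the upper and 0.63 in the lower rows. Among cells above 0 the median was 167.1 RPKM on the WT and 211.5 RPKM on the PD-1-/- plate. For none of the 58 factors were the intervals of the 2 shares apart. For Eif3j1, Eif3j2 and Eif4e1b, at 0 in every well, this was fixed in advance. The share of all genes with intervals apart was not computed, so nothing on the factors is read from this count.

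Among factors present in 20% or more of a plate's cells, the next largest rises were smaller and less even across the plate rows. They were those of Eef2k (log2 ratio 0.41, with 0.72 in the upper and 0.07 in the lower rows), Eif4e3, an eIF4E homologue (0.36, with 0.81 and -0.03), Eif4a2 (0.30, with 0.51 and 0.04) and Eif4g1 (0.28, with 0.82 and -0.31). Eif4enif1, the shuttling protein of eIF4E, was found in fewer cells (13.6% of all kept) and is named after its values were seen, with a log2 ratio of 0.48 (0.26 and 0.71). The largest falls were those of Eif2b2 (-0.49, with -0.12 and -0.80), Eif2a, an alternative carrier of initiator tRNA (-0.39, with -0.58 and -0.15), Eif3i (-0.37, with -0.44 and -0.30), Eif6 (-0.27, with -0.08 and -0.44) and Eif3m (-0.27, with -0.30 and -0.23).

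Eif3i and Eif3m belong to eIF3, where most subunits were lower on the PD-1-/- plate. Of the 12 eIF3 subunits above 0, 11 were lower on that plate and only Eif3c was higher, with a median log2 ratio of -0.13, where 54.2% of all genes were lower. In both the upper and the lower rows 7 subunits were lower, while Eif3b, Eif3d, Eif3e and Eif3g changed direction between them. Eif3i had a lowest value of 0, a median of 369.4 RPKM and a highest value of 3539 on the WT plate, and a lowest value of 0, a median of 279.98 RPKM and a highest value of 2257 on the PD-1-/- plate, so that the plates overlapped. In elongation 8 of 9 factors were lower, 5 of them in both row blocks. Both counts include Eef1a2 with its few cells and Eef1e1 of the multi-tRNA synthetase complex. The factor that was higher was Eef2k, the kinase that inhibits eEF2. All 3 subunit joining factors were lower, Eif5b by only 0.01, and 2 of them in both row blocks. Of 11 cap-binding factors 7 were higher, 2 of them in both row blocks, with a median of 0.01. The share of all genes with the same direction in both row blocks was not computed, so these counts by role cannot be set against it.

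The second question was which other transcripts went with the factors from cell to cell. All relations below are descriptions across cells of 1 library, which share depth and the scaling of RPKM to a common total, and carry no p. The score followed the number of genes above 0 in a cell, with Spearman's rho of 0.791 in WT (n = 360) and 0.788 in the PD-1-/- cells. For this reason the partial rho, the rank correlation given the number of genes above 0, is given beside most rho values or in their place. Over 3708 other genes found in at least 20% of cells of each plate, the median rho with the score was 0.112 and 0.114 and the median partial rho 0.0105 and 0.00492. The partial rho was -0.0115 and -0.0166 with the level of the T-like markers and -0.0928 and -0.0392 with that of the cycling-like markers.

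Most pairs of factors had a partial rho near 0. Pairs of other genes were not examined, so whether the factors went together more or less than other genes is not known. Over 903 pairs of the 43 factors found in at least 20% of kept cells, the median partial rho was 0.0136 in WT and 0.0156 in PD-1-/- cells, and it was at least 0.2 on both plates for 8 pairs. The choice of pairs named here was made from these values, and 7 of the 8 included Eef1a1. Eef1a1 with Eef2 had the highest, 0.460 and 0.423, followed by Eef1a1 with Eef1b2 (0.391 and 0.381), Eef1a1 with Eef1g (0.345 and 0.273) and Eef1a1 with Eif3f (0.423 and 0.272). The remaining pairs joined Eef1b2 with Eef1g, and Eef1a1 with Eif3h, Eif3k and Eif3e. Each gene in these pairs was above 0 in at least 67.5% of the cells of either plate.

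Nme1, a nucleoside diphosphate kinase that makes GTP and other nucleoside triphosphates, was above 0 in 69.7% of the cells of either plate, with medians of 227.99 and 185.06 RPKM and highest values of 1835 and 1364 RPKM. The score had a rho of 0.352 with Nme1 in WT and 0.377 in PD-1-/- cells, rank 36 and 24 among the 3708 genes. The partial rho was 0.150 and 0.240, above the 95th percentile of these genes on both plates (0.137 and 0.132). Cells with Nme1 above 0 had a median score of 2.46 against 2.08 without it on the WT plate, and 2.40 against 1.963 on the PD-1-/- plate, but they also had more genes above 0, with medians of 2387 against 1959 and 2396 against 1953.

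Cells were therefore divided by their number of genes into 3 equal bins on each plate. In WT cells the median score with Nme1 exceeded that without it by 0.131 in the bin with the fewest genes, by 0.105 in the middle bin and by 0.196 in the bin with the most genes. In PD-1-/- cells the differences were 0.152, 0.236 and 0.249. The bin with the most genes held 9 WT and 18 PD-1-/- cells without Nme1. The direction was thus the same in all 6 bins, at less than the SD of the score over cells. The bins were wide, with 1076 to 2077 genes in the lowest and 2491 to 3477 in the highest WT bin. The number of genes thus still varied within each bin, and its part in the differences here and below was not tested.

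**Figure D4:**
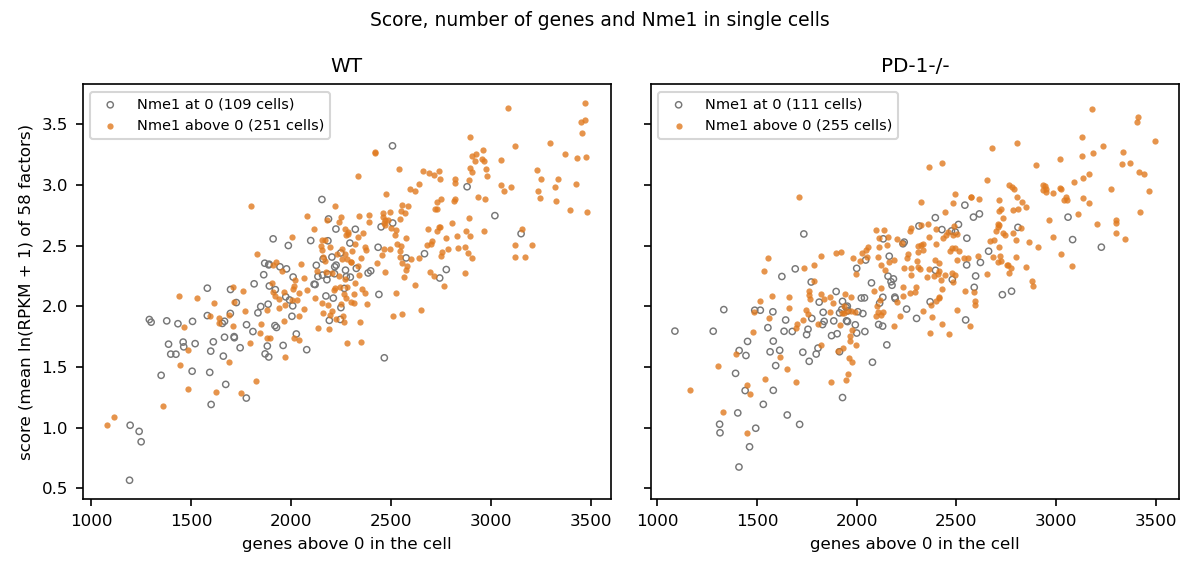
Score of each kept cell (mean ln(RPKM + 1) of the 58 factors) against its number of genes above 0, for the WT and the PD-1-/- plate, with filled points for cells with Nme1 above 0 and open points for cells with Nme1 at 0. The score rises with the number of genes (rho 0.791 and 0.788), and the cells without Nme1 lie mostly at lower gene numbers.

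Among the factors, Eif5a went closest with Nme1. Its rho with Nme1 was 0.278 in WT and 0.402 in PD-1-/- cells, and its partial rho 0.224 and 0.356. By rho it was followed by Eif4a1 (0.218 and 0.272), Eef1g (0.211 and 0.315), Eif3b (0.208 and 0.187), Eef1b2 (0.170 and 0.249) and Eif4g1 (0.165 and 0.165). Their partial rho values were lower: Eif4a1 0.145 and 0.193, Eef1g 0.102 and 0.245, Eif3b 0.158 and 0.120, Eef1b2 0.0831 and 0.164, Eif4g1 0.0812 and 0.0986. At the other end stood Eif1b (0.0771 and -0.0391), Eif4a2 (-0.0301 and 0.0157), Eif1ad, an eIF1A-domain protein (-0.0240 and 0.0346), and Eif1 (-0.0217 and 0.0700). The partial rho values were 0.0221 and -0.114 for Eif1b, -0.0311 and 0.0490 for Eif4a2, -0.0783 and 0.0396 for Eif1ad, and -0.0379 and 0.0791 for Eif1. By rho, the paralogs Eif4a1 and Eif4a2 thus stood at opposite ends. A positive partial rho with Nme1 on both plates was found for 22 of 40 factors in at least 20% of cells of each plate (55%), where 30.7% of 3747 genes had one, and the median partial rho of the 40 factors was 0.0258 in WT and 0.0535 in PD-1-/- cells. Without Eif5a the score had a partial rho of 0.138 and 0.221 with Nme1.

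Ldha, the lactate dehydrogenase subunit of glycolytic cells, was above 0 in 83.9% of WT cells and 86.1% of PD-1-/- cells at medians of 405 and 432 RPKM. Its rho with the score was 0.434 in WT and 0.363 in PD-1-/- cells, rank 12 and 34 among the 3708 genes. Given the number of genes above 0 the values were 0.144 and 0.0538, the first above and the other below the 95th percentile of these genes, so that in PD-1-/- cells little of the relation was left. In the 3 bins of gene number, the score with Ldha exceeded that without by 0.138, 0.224 and 0.307 in WT cells, and by 0.0841, -0.0375 and 0.0907 in PD-1-/- cells, but in the bin with the most genes only 2 cells of each plate lacked Ldha. The 14 glycolysis genes as a list, Ldha among them, had a partial rho of 0.198 in WT and 0.0435 in PD-1-/- cells. The difference between the plates was not tested.

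The effector genes as a group showed no common relation to the translation factors. Over 15 effector genes the median rho with the score was 0.00224 in WT and -0.0192 in PD-1-/- cells, and the median partial rho -0.0279 and -0.0243. Of the 11 found in at least 20% of cells of each plate, 0 had a partial rho of at least 0.2 on both plates, where 0.836% of the 3708 genes had one, and by rho alone 1 did, where 7.39% did.

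That gene was Xcl1, the chemokine that attracts cross-presenting dendritic cells, with a rho of 0.220 in WT and 0.285 in PD-1-/- cells and a partial rho of 0.122 and 0.138. Gzmc, a granzyme of strongly stimulated cells, had a rho of 0.326 and 0.193 but a partial rho of 0.0584 and -0.0526. Gzmb and Prf1, the main killing proteins, had partial rho values of 0.0728 and 0.0324 and of 0.00787 and 0.0480. Tnf, Ifng, Ccl3 and Ccl4, which are made upon stimulation, stayed between -0.0814 and 0.0346 in partial rho on both plates.

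By rho, Ccl5 was the effector gene farthest from 0, and it was negative. By partial rho this held in PD-1-/- cells, while in WT cells Xcl1 was farther from 0. Ccl5 had means of 6624 RPKM in WT and 7611 RPKM in PD-1-/- cells and a rho with the score of -0.430 and -0.511, which put it at rank 3707 of the 3708 genes on both plates. Its rho with the number of genes above 0 was -0.482 and -0.483, and its partial rho with the score -0.0918 and -0.242. In the 3 bins of gene number the rho with the score was -0.113, -0.0734 and -0.356 in WT cells and -0.322, -0.219 and -0.351 in PD-1-/- cells. Gzma and Nkg7, likewise among the most abundant transcripts, had a rho of -0.210 and -0.218 and of -0.163 and -0.142, and partial rho values between -0.0399 and -0.00128. These genes had means of at least 5832 RPKM, on a scale that divides 1 total among all genes of a cell, and the part of this in the negative values was not tested.

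**Figure D5:**
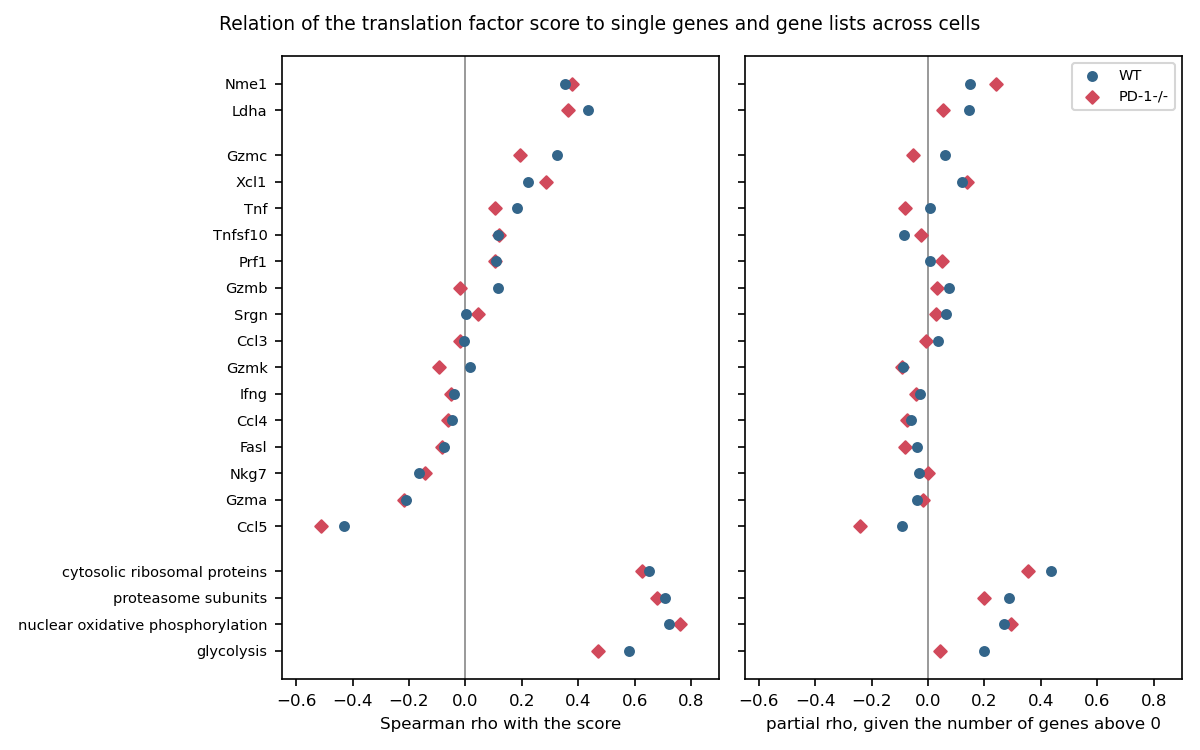
Spearman's rho with the translation factor score across cells (left) and the partial rho given the number of genes above 0 (right) for Nme1, Ldha, the 15 effector genes and 4 gene lists (mean ln(RPKM + 1)), with circles for WT and diamonds for PD-1-/- cells. The ribosomal protein list keeps the highest partial rho (0.435 and 0.355), Nme1 stays above 0 on both plates (0.150 and 0.240), and most effector genes lie near 0 with Ccl5 lowest.

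Among single genes, those of the ribosome led. The 10 genes with the highest rho, by the smaller of the values on the 2 plates, were Rps2, Rplp0, Rpl32, Rps18, Rps19, Rps26, Rpl4 and Rps20, all ribosomal proteins, Gnb2l1, which encodes the ribosome-bound scaffold RACK1, and the chaperone Hsp90ab1. Rplp0 reached a rho of 0.528 in WT and 0.504 in PD-1-/- cells and a partial rho of 0.272 and 0.295. As lists, the order depended on the measure. The rho with the score was 0.652 and 0.625 for the 78 cytosolic ribosomal proteins, below the 0.722 and 0.760 of nuclear genes of oxidative phosphorylation and the 0.708 and 0.678 of the proteasome subunits. The partial rho was highest for the ribosomal proteins, at 0.435 and 0.355, against 0.270 and 0.295 for oxidative phosphorylation and 0.286 and 0.197 for the proteasome. The 5 genes with the lowest rho were Malat1 (-0.478 and -0.528), Ccl5, Ifngr1, the interferon gamma receptor (-0.257 and -0.372), Klf2, a factor of quiescence and trafficking (-0.227 and -0.272), and Gzma. For Malat1, a nuclear RNA, the partial rho was -0.0306 and -0.0603, for Ifngr1 -0.0236 and -0.189, and for Klf2 -0.0765 and -0.136.

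Among the genes that control translation, the closest on both plates was Npm1, a nucleolar protein of ribosome assembly, with a partial rho of 0.184 in WT and 0.275 in PD-1-/- cells, above the 95th percentile of the 3708 genes on both. Of 27 such genes, 19 were found in at least 20% of cells of each plate. Of these, 4 (21.1%) had a rho of at least 0.2 on both plates, where 7.39% of the 3708 genes had one, and 0 a partial rho of that size, which was rare among all genes too (0.836%). Fbl, a nucleolar methyltransferase, had 0.0734 and 0.263, and Myc, which drives ribosome production, -0.00155 and 0.0635. Pdcd4, an inhibitor of eIF4A, had a partial rho of -0.0126 in WT and -0.202 in PD-1-/- cells. These 4 genes were named after their values were seen. Between the plates, 1 of the 21 control genes that reached 10 RPKM on either plate was past 1.5-fold, Rps6kb2, an S6 kinase (log2 ratio 0.68, higher on the PD-1-/- plate), a share of 4.76% that lies near the 5.35% of all genes.

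In the integrated stress response, which slows initiation through eIF2 alpha, 3 of 8 genes were found in at least 20% of cells of each plate, too few for a count of relations to be read against all genes. Atf4, its main transcription factor, was above 0 in 66.9% of the WT and 63.1% of the other cells, with a partial rho with the score of 0.129 and 0.158. Of the 6 genes that reached 10 RPKM on either plate, Eif2ak3 (PERK) was past 1.5-fold higher on the PD-1-/- plate (log2 ratio 0.70) and Eif2ak1 past 1.5-fold lower (-0.59), where 5.35% of all genes were higher and 5.28% lower.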

How the data were processed

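Per the labels, NK cells of MTAP1A tumors from WT and PD-1-/- mice were sorted singly and sequenced by SMART-SEQ2, 1 plate per genotype. The authors deposited RPKM per gene and well, without counts. The submitters' processing notes name TopHat, Cufflinks and the builds mm9 and mm10, without versions or roles, and the annotation and counting are not given in the sources used here. Wells with 1000 to 3500 genes above 0 were kept. Whole reads were recovered from the RPKM steps of 9416 genes, where 94.9% of 690698 values below 60 reads lay within 0.0003 of a whole number. They served only to describe depth (1151 to 796420 reads per kept cell) and to thin cells to 100000 reads. For genes whose steps were mixed, the thinning used approximate reads. The thinned score held 55 factors, of which 44 had whole reads. Since each genotype is 1 pool, no test, SE or p was computed, and intervals cover counting error only. Levels between plates were compared as log2 ratios of mean RPKM with a pseudocount of 1. Named factors were the 12 with the highest mean, the 5 largest rises and falls among those that reached a mean of 10 RPKM and 20% of cells on either plate, and the 6 highest and 4 lowest in rho with Nme1, with both members of each paralog pair, the 4E-binding proteins and factors listed at 0; others are given by role. Members and lists were chosen with earlier results of these data known. Calculations used scipy 1.17.1, pandas 2.3.3 and numpy 2.4.6 under Python 3.11.15, and scripts were tested on simulated data. Alternatives in cells, scaling, pseudocount, depth and plate rows were tried.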

Additional observations from a re-analysis of the deposited data

How the results depend on the processing

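No paired analysis was possible because each genotype is 1 pool of cells on 1 plate, and for the same reason no replicate could be left out. Over 10 results and 21 alternatives, 4 of them chosen after seeing the data, 22 values moved beyond the limit set for each result, which for a count was 1.5 times. The score difference ran from -0.118 in rows I to P to 0.0146 in rows A to H. The count of factors at least 1.5-fold higher on the PD-1-/- plate was 1. It was 2 in cells with 1500 to 3000 genes above 0, 5 in rows A to H, 2 in rows I to P, 2 in cells without a CD3 chain read, 0 among factors in at least 20% of cells, and 0 with each cell scaled to a sum of 10000. The count at least 1.5-fold lower was 0, and it was 1 in cells with 1500 to 3000 genes, 1 in rows A to H, 1 in rows I to P and 1 in rows C to P. Eif2d, the factor counted with all kept cells, was above 0 in 19.97% of kept cells and so fell under the limit of 20%. Scaling to a sum of 10000 leaves values small against the pseudocount of 1, which draws ratios toward 0. The cause of the other shifts was not tested. The rho of the score with Nme1 in WT cells, 0.352, was 0.150 given the number of genes above 0, 0.208 after the level of all genes was subtracted from the score, and 0.147 in thinned cells given the number of genes. For Nme1 in PD-1-/- cells, 0.377 became 0.240, 0.256 and 0.239 in the same order. For Ldha, 0.434 in WT cells became 0.144, 0.231 and 0.145, and 0.363 in PD-1-/- cells became 0.0538, 0.113 and 0.0330. Depth limits the low factors most, since a factor at 0 in a cell may have been missed, and 33 WT and 18 PD-1-/- cells had under 100000 recovered reads.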
